A study of Mus musculus with 12 samples.

Results

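A set of 10 genes of semaphorin signalling was followed in cultured mouse oligodendrocyte precursor cells (OPCs): the class A plexins Plxna1, Plxna2 and Plxna4, the class B plexins Plxnb1, Plxnb2 and Plxnb3, the neuropilins Nrp1 and Nrp2, and the transmembrane semaphorins Sema5a and Sema6a. They were chosen by name, with earlier results of these data known, so the set was not independent of the data. For each, the transcript cluster (the group of array probes summarized as 1 transcript) annotated to that symbol with the highest mean over the arrays was used. Of the 10 genes, 9 had a cluster of their own, out of 30077 genes with such a cluster among the 65535 clusters of the table. Each of the 9 had just 1 own cluster. Nrp1 was annotated only to a cluster that also carries the microRNA gene Mir1903, so its signal could not be given to either gene, and it was left out of every count.

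The cells came from brains of C57Bl/6 pups at postnatal day 2, were sorted with magnetic beads against CD140a (the PDGF receptor alpha on the surface of OPCs), and were plated at 300000 cells per well. They proliferated for 48 h with PDGF-AA and bFGF and were then moved to a differentiation medium with T3 (thyroid hormone) and without these growth factors, in which they stayed for 24 h. About 4 h after the move they received extracellular vesicles (EVs) of primary mouse microglia, at 2 donor microglia per OPC, or medium alone (CTRL). The donor microglia had been stimulated with pro-inflammatory cytokines (i-EVs), with interleukin 4 (IL4-EVs), or with pro-inflammatory cytokines in co-culture with mesenchymal stem cells (MSC-EVs). All 4 groups shared the sort, the plating, the growth factor withdrawal and T3, and no group received EVs of unstimulated microglia. Each group had 3 samples with 1 Clariom D array each, 12 arrays in all. The samples were described as independent, yet their litters and cultures are not given, and every p-value here therefore reflects the scatter among these samples alone, which may be technical.

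Semaphorins are guidance cues that are either secreted or held in the membrane, and plexins are the receptors through which most of them act. The inner part of a plexin switches off small GTPases of the Ras and Rap kind, and so reshapes the cytoskeleton and the adhesion of a cell. Neuropilins bind secreted class 3 semaphorins and hand the signal to class A plexins, and in the oligodendrocyte lineage these cues are known for steering the migration of precursors and for shaping process outgrowth and differentiation.

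The letters before an annotated start are shown for 3 of these genes. Plxnb1, on the one hand, and Plxnb3 and Sema5a, on the other, stood for the 2 patterns among arrays described further on. The sequences are from RefSeq (GRCm38.p6), all on the plus strand, and each gives the 250 bases before an annotated start of the gene, at chr9:109095186-109095435 for Plxnb1, chrX:73756853-73757102 for Plxnb3 and chr15:32244563-32244812 for Sema5a. The Sema5a stretch ends right before the first base of its gene. Those of Plxnb1 and Plxnb3 lie before inner starts, since these genes begin at 109093849 and 73756556. The letters before the outer starts of these 2 genes are not shown. Capitals mark motifs on either strand, with overlapping copies counted. The GC box was searched as GGGCGG. The core motif of SOX factors was searched as ACAAAG. The CCAAT box was searched by the letters of its name. The E-box was searched as CACGTG. The TATA box was searched as TATAAA.
Plxnb1: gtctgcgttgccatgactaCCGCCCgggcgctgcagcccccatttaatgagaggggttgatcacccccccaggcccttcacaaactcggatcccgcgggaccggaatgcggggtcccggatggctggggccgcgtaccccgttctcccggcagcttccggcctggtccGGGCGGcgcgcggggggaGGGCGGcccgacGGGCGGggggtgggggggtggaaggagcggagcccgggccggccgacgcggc
Plxnb3: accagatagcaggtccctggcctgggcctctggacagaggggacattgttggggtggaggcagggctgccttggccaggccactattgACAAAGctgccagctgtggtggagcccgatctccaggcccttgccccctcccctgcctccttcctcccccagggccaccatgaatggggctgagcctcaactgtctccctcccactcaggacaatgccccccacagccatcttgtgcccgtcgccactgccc
Sema5a: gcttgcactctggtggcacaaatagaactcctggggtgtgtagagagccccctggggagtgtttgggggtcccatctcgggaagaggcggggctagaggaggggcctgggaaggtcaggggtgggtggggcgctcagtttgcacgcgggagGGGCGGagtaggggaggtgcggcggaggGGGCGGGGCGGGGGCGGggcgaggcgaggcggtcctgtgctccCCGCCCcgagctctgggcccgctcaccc
The Plxnb1 stretch held 4 GC boxes and the Sema5a stretch 5, of which 2 share a base, while the Plxnb3 stretch held no GC box and 1 SOX motif. The other motifs were not found in these 3 stretches. Of all 32851 promoter stretches of this length in the table, 32.7% held a GC box, 16.5% the SOX motif, 33.8% a CCAAT box, 6.02% the E-box and 12.4% a TATA box. The table had a stretch for 7 of the 10 genes (8 stretches, Plxnb2 with 2), and 6 of these 7 genes had a GC box in theirs. Their GC content lay between 62.8% and 75.2%, against a median of 52.4% over all promoters.

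Of the OPC markers, 7 of 8 had a cluster of their own and all 7 had means of at least 9.62 log2 units (Cspg4), far above the array medians of 3.53 to 3.65. Pdgfra, the sorted marker, was in a cluster shared with a microRNA gene, at a mean of 17.55. All 11 measured microglia markers, among them Cx3cr1, Csf1r and P2ry12, had means under 4 log2 units, close to the array medians, and limma called none of them with any EVs (1 at unadjusted p under 0.05 with IL4-EVs, 1 with MSC-EVs and 0 with i-EVs). Of the myelin genes 4 of 7 had means under 4, of the fibroblast and mesenchymal genes 5 of 7 and of the endothelial genes 5 of 6. MSC-EVs replicate 3 was unlike the rest: the 7 cell cycle genes all peaked on it (Mki67 16.69 against 14.28 to 14.92 elsewhere) and all 7 committed precursor genes their lowest (Enpp6 5.13 against 8.87 to 9.63). i-EVs replicate 2 had the highest array median, 3.65 against 3.53 to 3.58 elsewhere. Results that rest on either array are therefore also given without it.

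Part of the measured plexins and semaphorins rose with IL4-EVs and MSC-EVs, with the clearest rises in Sema6a, Plxna1 and Plxnb1, and 0 of 9 fell with any EVs. Rises and falls are those with an adjusted p under 0.05 in limma (a two-sided test from a linear model of the 4 groups, with moderated spread and Benjamini-Hochberg adjustment over the 65535 clusters). With MSC-EVs 4 of the 9 genes rose compared to CTRL (Plxna1, Plxnb1, Plxnb2 and Sema6a), against 5.86% of all clusters called higher in that comparison. With IL4-EVs 3 rose (Plxna1, Plxnb1 and Sema6a), against 1.61%. With i-EVs 0 of 9 passed in limma, against 0.0977% called higher, while 3 of 9 had an unadjusted p under 0.05. Among the 13061 clusters with a mean of at least 6 log2 units, which 7 of the 9 genes reached, the shares called higher were 15.3%, 6.47% and 0.352% with MSC-EVs, IL4-EVs and i-EVs. The 3 comparisons used the same CTRL arrays. In such a bulk measurement, a different number of cells of a type and a different amount of RNA per cell cannot be told apart.

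**Figure D1:**
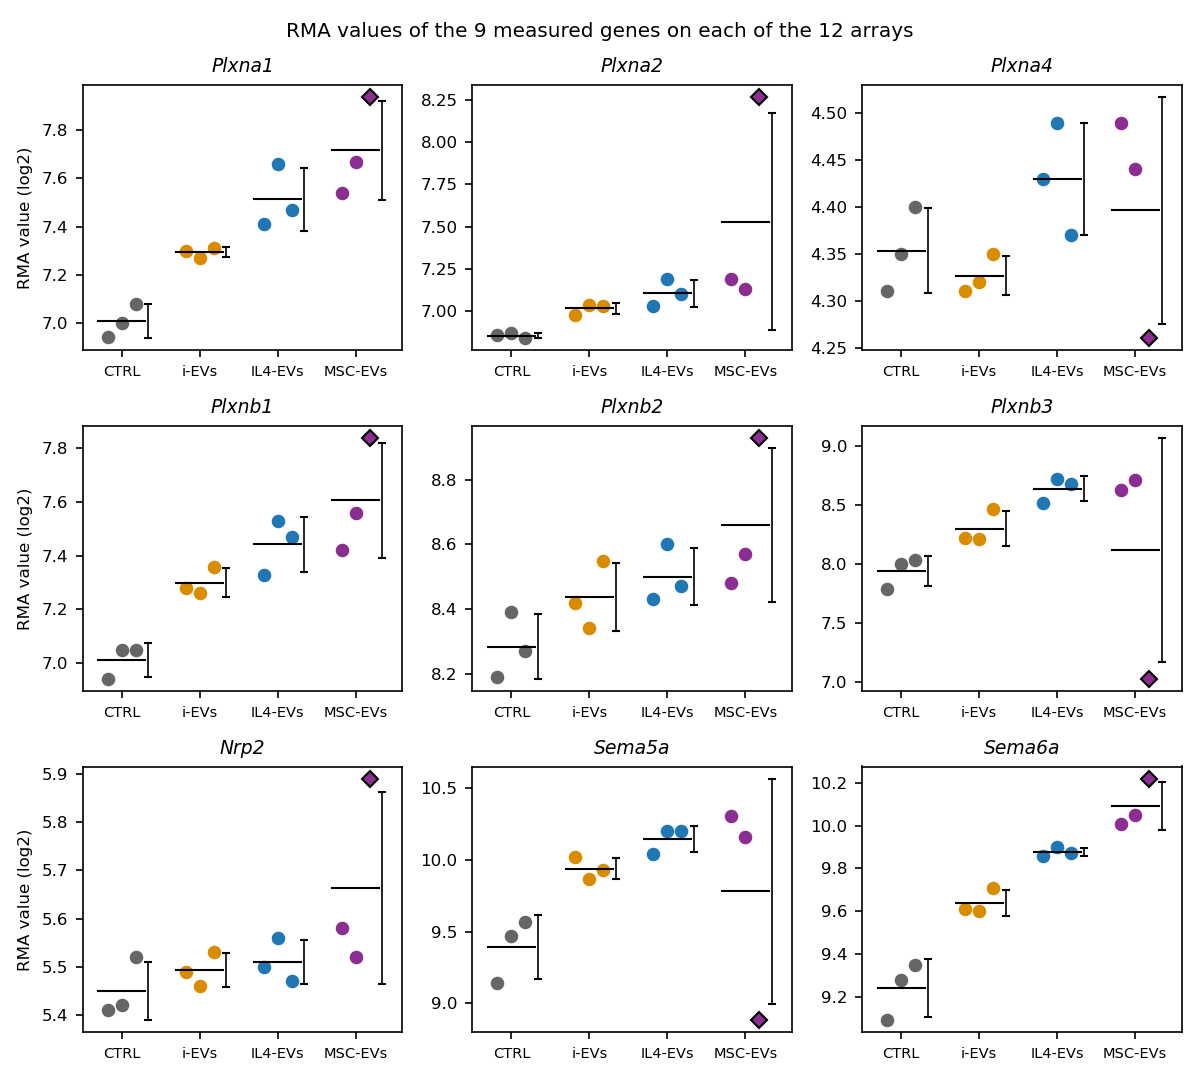
Deposited RMA values (y axis, log2 units) of the 9 measured genes on the 12 arrays, by condition; dots are arrays, the diamond is MSC-EVs replicate 3, the short line is the mean and the bar at its right is 1 SD of 3 arrays. In Plxna1, Plxnb1 and Sema6a every EV array lies above every CTRL array, and in Plxnb3 and Sema5a the diamond (7.02 and 8.88) is the lowest of the 12 arrays.

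Plxna1, a receptor that works with neuropilins in the response to secreted semaphorins, was at 6.94, 7.0 and 7.08 log2 units in CTRL, 7.30, 7.27 and 7.31 with i-EVs, 7.41, 7.66 and 7.47 with IL4-EVs, and 7.54, 7.67 and 7.94 with MSC-EVs. All i-EVs arrays were above all CTRL arrays, all IL4-EVs arrays were above all i-EVs arrays, and the MSC-EVs arrays overlapped with those of IL4-EVs. The log2 fold change compared to CTRL was 0.28 ± 0.0991 (SE of the fit) with i-EVs (1.22-fold, limma adjusted p = 0.221), 0.50 ± 0.0991 with IL4-EVs (1.42-fold, limma adjusted p = 0.0122) and 0.71 ± 0.0991 with MSC-EVs (1.63-fold, limma adjusted p = 0.00112). The rise with MSC-EVs passed in 20 of 20 alternative settings (adjusted p 0.000439 to 0.0159). Among these settings is the second deposited file, which holds the same values and can only repeat the result. Another, without both arrays that stand apart, was chosen after seeing the data. The rise with IL4-EVs passed in 18 of 20 (adjusted p 0.00273 to 0.0625), and was lost without CTRL replicate 1 (adjusted p = 0.0625) and without IL4-EVs replicate 2 (adjusted p = 0.0613).

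Plxna2, a receptor that also binds Sema6a, was at 6.86, 6.87 and 6.84 in CTRL, 6.98, 7.04 and 7.03 with i-EVs, 7.03, 7.19 and 7.10 with IL4-EVs, and 7.19, 7.13 and 8.27 with MSC-EVs. Every EV array was above every CTRL array, and MSC-EVs replicate 3 was more than 1 log2 unit above all others. Over all 12 arrays and clusters the gene passed in none of the 3 comparisons with CTRL. The log2 fold change was 0.16 for i-EVs, 0.25 for IL4-EVs and 0.67 for MSC-EVs (SE 0.227, limma adjusted p = 0.846, 0.718 and 0.0823). Without MSC-EVs replicate 3 the SE with IL4-EVs fell to 0.0588. Plxna2 then rose 0.25 with IL4-EVs (limma adjusted p = 0.0252) and 0.30 ± 0.0657 with MSC-EVs (limma adjusted p = 0.0146). Over the alternatives the adjusted p ran from 0.0234 to 0.85 with IL4-EVs and from 0.0145 to 0.256 with MSC-EVs. Some alternatives that kept MSC-EVs replicate 3 also passed with MSC-EVs. These were the fit of clusters with a mean of at least 6 (limma adjusted p = 0.0342), and those without MSC-EVs replicate 1 or 2 (0.0451 and 0.0302).

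Plxna4, another class A receptor for secreted semaphorins and for Sema6a, stayed between 4.26 and 4.49 on all 12 arrays. This was below the minimum of 6 log2 units and not far above the array medians, and the groups overlapped with each kind of EVs. Its log2 fold changes compared to CTRL were -0.03, 0.07 and 0.04 (SE 0.0699) in the order i-EVs, IL4-EVs, MSC-EVs, with 95% intervals of -0.18 to 0.12, -0.08 to 0.23 and -0.11 to 0.20.

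Plxnb1, the receptor of the semaphorin Sema4d, was at 6.94, 7.05 and 7.05 in CTRL, 7.28, 7.26 and 7.36 with i-EVs, 7.33, 7.53 and 7.47 with IL4-EVs, and 7.42, 7.56 and 7.84 with MSC-EVs. The EV arrays were all above the CTRL arrays, and each kind of EVs overlapped with the next. The log2 fold change was 0.29 ± 0.099 with i-EVs (limma adjusted p = 0.215), 0.43 ± 0.099 with IL4-EVs (1.35-fold, limma adjusted p = 0.0268) and 0.59 ± 0.099 with MSC-EVs (1.51-fold, limma adjusted p = 0.00272). The rise with MSC-EVs passed in 20 of 20 alternatives (adjusted p 0.000982 to 0.028) and that with IL4-EVs in 15 of 20 (0.00509 to 0.117). The 5 that lost it each left out 1 array: CTRL replicate 1, 2 or 3 (adjusted p = 0.117, 0.0674 and 0.0621) or IL4-EVs replicate 2 or 3 (adjusted p = 0.116 and 0.0943).

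Plxnb2, a receptor of class 4 semaphorins, was at 8.19, 8.39 and 8.27 in CTRL, 8.42, 8.34 and 8.55 with i-EVs, 8.43, 8.60 and 8.47 with IL4-EVs, and 8.48, 8.57 and 8.93 with MSC-EVs. The i-EVs arrays overlapped with CTRL, while all IL4-EVs and MSC-EVs arrays were above it. The log2 fold change was 0.16, 0.22 and 0.38 (SE 0.112) with limma adjusted p = 0.625, 0.383 and 0.0467, so that only MSC-EVs passed. That call was close to the threshold. It held in 6 of 20 alternatives (adjusted p 0.0174 to 0.167), among them the file that repeats the same values. Without MSC-EVs replicate 3 the change was 0.24 ± 0.0892 (limma adjusted p = 0.123).

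Plxnb3, the receptor of Sema5a and a plexin known from oligodendrocytes, was at 7.79, 8.0 and 8.03 in CTRL, 8.22, 8.21 and 8.47 with i-EVs, 8.52, 8.72 and 8.68 with IL4-EVs, and 8.63, 8.71 and 7.02 with MSC-EVs. Apart from MSC-EVs replicate 3, which was the lowest of the 12 arrays, every EV array was above every CTRL array, and every IL4-EVs array above every i-EVs array. Over all arrays the log2 fold change was 0.36, 0.70 and 0.18 (SE 0.337) and none passed (limma adjusted p = 0.728, 0.338 and 0.843). Without MSC-EVs replicate 3, Plxnb3 rose 0.70 ± 0.0954 with IL4-EVs (1.62-fold, limma adjusted p = 0.00176) and 0.73 ± 0.107 with MSC-EVs (1.66-fold, limma adjusted p = 0.0021), while with i-EVs the change was 0.36 ± 0.0954 (limma adjusted p = 0.0795). Over all alternatives the adjusted p with IL4-EVs ran from 0.00176 to 0.588 and with MSC-EVs from 0.0021 to 0.948.

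Nrp2, a co-receptor that binds class 3 semaphorins and vascular endothelial growth factors, lay between 5.41 and 5.89 on the 12 arrays, below the minimum of 6. Its highest value was in MSC-EVs replicate 3, and the other 11 arrays lay between 5.41 and 5.58. The log2 fold change was 0.04, 0.06 and 0.21 (SE 0.0884) in the same order, and no comparison passed (limma adjusted p = 0.893, 0.866 and 0.162). The 95% intervals of -0.15 to 0.24 and -0.13 to 0.25 with i-EVs and IL4-EVs leave room for small changes in either direction. With MSC-EVs the unadjusted interval was 0.02 to 0.41. Without MSC-EVs replicate 3 the change with MSC-EVs was 0.10 ± 0.0655 (limma adjusted p = 0.442). The cluster that Nrp1 shares with Mir1903 lay between 4.41 and 4.74, also dim.

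Sema5a, a transmembrane semaphorin with thrombospondin repeats and the ligand of Plxnb3, was at 9.14, 9.47 and 9.57 in CTRL, 10.02, 9.87 and 9.93 with i-EVs, 10.04, 10.20 and 10.20 with IL4-EVs, and 10.31, 10.16 and 8.88 with MSC-EVs. As in its receptor, MSC-EVs replicate 3 was the lowest of the 12 arrays and all other EV arrays were above CTRL. Over all arrays the log2 fold change was 0.55, 0.75 and 0.39 (SE 0.286), and none passed (limma adjusted p = 0.455, 0.188 and 0.501). Without that array Sema5a rose with all kinds of EVs, by 0.55 ± 0.106 with i-EVs (1.46-fold, limma adjusted p = 0.0315), 0.75 ± 0.106 with IL4-EVs (1.68-fold, limma adjusted p = 0.00208) and 0.84 ± 0.119 with MSC-EVs (1.79-fold, limma adjusted p = 0.00181). Over the alternatives the adjusted p ran from 0.0315 to 0.748 with i-EVs, where it passed in 1 of 20, from 0.00208 to 0.466 with IL4-EVs and from 0.00181 to 0.87 with MSC-EVs.

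Sema6a, a transmembrane semaphorin that binds Plxna2 and Plxna4 and whose loss in mice delays oligodendrocyte differentiation, was at 9.09, 9.28 and 9.35 in CTRL, 9.61, 9.60 and 9.71 with i-EVs, 9.86, 9.90 and 9.87 with IL4-EVs, and 10.01, 10.05 and 10.22 with MSC-EVs. The 4 groups did not overlap at all. The share of all clusters like this was not counted, nor that for any pair of EV groups, so how unusual it is cannot be told. Each array of i-EVs was above CTRL, each of IL4-EVs above i-EVs, and each of MSC-EVs above IL4-EVs. Its rise was 0.64 ± 0.0805 with IL4-EVs (1.55-fold, limma adjusted p = 0.00193) and 0.85 ± 0.0805 with MSC-EVs (1.81-fold, limma adjusted p = 0.000276). Both passed in 20 of 20 alternatives (adjusted p 0.000623 to 0.013 and 0.000119 to 0.00708). With i-EVs the change was 0.40 ± 0.0805 (1.32-fold, limma adjusted p = 0.052), which narrowly missed the threshold. It passed in 6 of 20 alternatives (adjusted p 0.0157 to 0.213), among them that without MSC-EVs replicate 3 (0.0254) and that without i-EVs replicate 1 (0.0483).

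**Figure D2:**
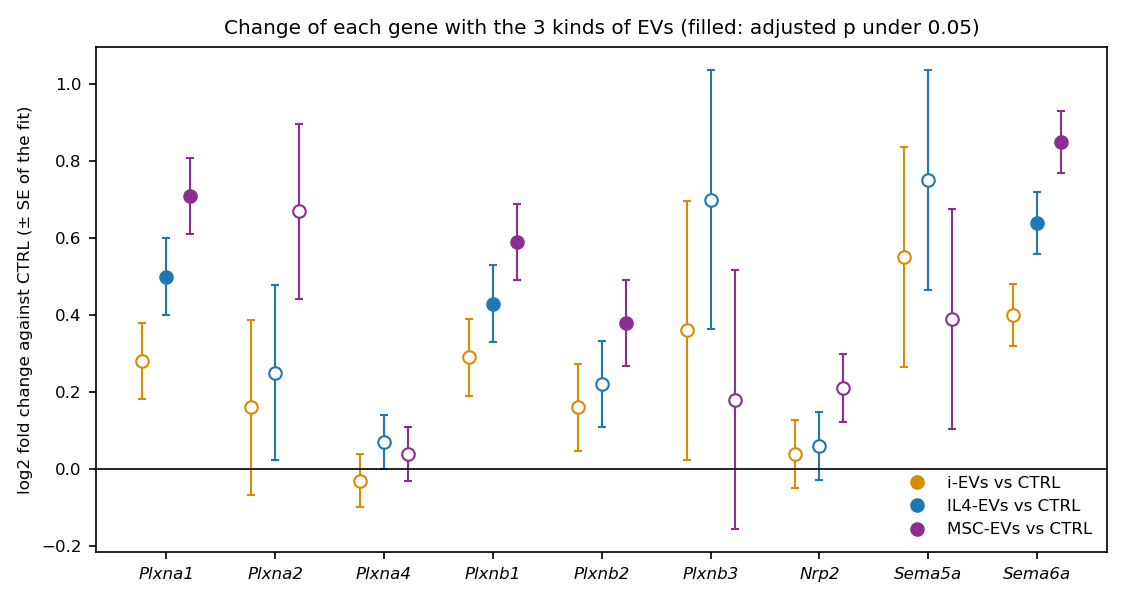
log2 fold change against CTRL (y axis, ± SE of the fit over 12 arrays) of the 9 measured genes (x axis) for each kind of EVs (colour); filled dots have an adjusted p under 0.05. Sema6a (0.40, 0.64 and 0.85), Plxna1 (0.28, 0.50 and 0.71) and Plxnb1 (0.29, 0.43 and 0.59) have short error bars, and Plxnb3 and Sema5a have long ones (SE 0.337 and 0.286).

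At a fold of at least 1.5 as well as an adjusted p under 0.05, the counts were 3 with MSC-EVs (Plxna1, Plxnb1 and Sema6a), 1 with IL4-EVs (Sema6a) and 0 with i-EVs, against 3.12%, 0.537% and 0.032% of all clusters. The median log2 fold change of the 9 genes was 0.28 for i-EVs, 0.43 for IL4-EVs and 0.39 for MSC-EVs, and that of all clusters was 0.02, 0.00 and -0.01. All 3 arrays lay above all 3 CTRL arrays in 6 of 9 genes for i-EVs, 7 for IL4-EVs and 6 for MSC-EVs, against 9.52%, 11.8% and 12.4% of all clusters and 14.6%, 23.3% and 22.2% of the clusters with a mean of at least 6.

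The order of the group means was CTRL, i-EVs, IL4-EVs, MSC-EVs, from low to high, for 6 of the 9 genes (Plxna1, Plxna2, Plxnb1, Plxnb2, Nrp2 and Sema6a). The same order was found in 8.51% of all clusters and in 15.6% of those with a mean of at least 6. In Plxnb3 and Sema5a the MSC-EVs mean came second, and without MSC-EVs replicate 3 both took the same order as the 6, which made 8 of 9 (9.2% of all clusters and 18% of those with a mean of at least 6). Plxna4 had another order both times. No pair of neighbours in this order passed the test. Between CTRL and i-EVs 0 of 9 passed, between i-EVs and IL4-EVs 0 of 9 passed (limma, 0.0% of all clusters called higher, 2 of 9 genes with an unadjusted p under 0.05) and between IL4-EVs and MSC-EVs 0 of 9 passed (limma, 0.00153% of all clusters called higher, 1 of 9 genes with an unadjusted p under 0.05). For Sema6a, the gene whose groups were all apart, the difference of IL4-EVs from i-EVs was 0.23 (95% interval 0.06 to 0.41, limma adjusted p = 0.539) and that of MSC-EVs from IL4-EVs 0.22 (0.04 to 0.39, limma adjusted p = 0.487).

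Between MSC-EVs and i-EVs, which are not neighbours, 1 of 9 genes passed, against 1.07% of all clusters called higher. Sema6a was 0.45 ± 0.0805 higher on the log2 scale with MSC-EVs (1.37-fold, limma adjusted p = 0.0286). It passed in 14 of 20 alternatives (adjusted p 0.0147 to 0.174). Without MSC-EVs replicate 3 the difference was 0.39 (adjusted p = 0.0744), and it was also lost without i-EVs replicate 1, 2 or 3 (adjusted p = 0.0948, 0.0691 and 0.0558). For Plxna1 the difference was 0.43 ± 0.0991 (limma adjusted p = 0.0575, range 0.027 to 0.242 over the alternatives) and for Plxnb1 0.31 ± 0.099 (limma adjusted p = 0.147).

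The genes split in MSC-EVs replicate 3. Of the 9, 6 had their highest value of the 12 arrays there (Plxna1, Plxna2, Plxnb1, Plxnb2, Nrp2 and Sema6a) and 3 their lowest (Plxna4, Plxnb3 and Sema5a). Over all clusters 13.8% had their highest and 17.0% their lowest value on this array, and 21.0% and 22.3% of those with a mean of at least 6. Its log2 difference from the mean of the other 2 MSC-EVs arrays was -1.65 for Plxnb3, -1.35 for Sema5a and 1.11 for Plxna2, while those of the other 6 genes lay between -0.20 (Plxna4) and 0.41 (Plxnb2). Genes of committed precursors went down on the same array, with Bmp4 at 7.19 against 10.56 to 11.07 elsewhere and Nkx2-2 at 8.15 against 9.70 to 10.10. Of the 7 OPC markers 2 had their highest value there (Cspg4 at 10.57 against 9.19 to 9.84, and Olig1 at 14.72 against 14.29 to 14.42) and 3 their lowest (Sox10 at 13.95 against 14.61 to 15.02, Gpr17 at 17.26 against 17.85 to 18.21 and Lhfpl3 at 16.96 against 17.30 to 17.45). Of the 7 astrocyte markers 1 was at its highest, Slc1a2 (7.17 against 6.62 to 6.94), and 4 at their lowest, among them S100b (8.15 against 10.22 to 10.65). The part of these cell states in the split of the plexins and semaphorins was not tested.

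**Figure D3:**
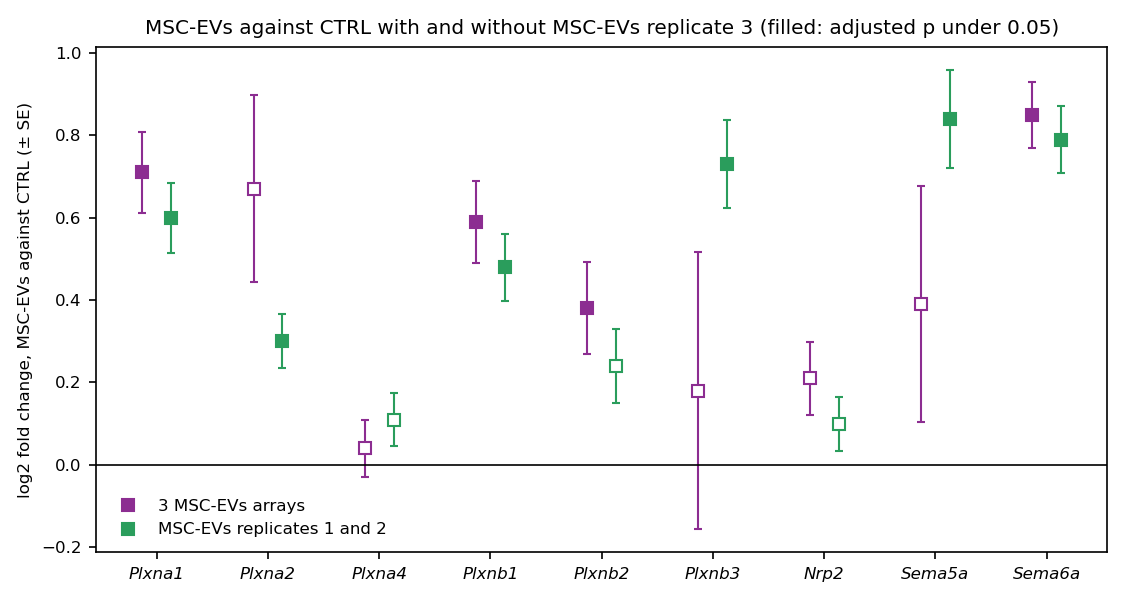
log2 fold change of MSC-EVs against CTRL (y axis, ± SE of the fit) of the 9 measured genes (x axis) with all 3 MSC-EVs arrays and with MSC-EVs replicates 1 and 2 alone; filled squares have an adjusted p under 0.05. Without replicate 3, Plxnb3 goes from 0.18 to 0.73, Sema5a from 0.39 to 0.84 and Plxna2 from 0.67 to 0.30, all with shorter bars, and Plxnb2 (0.24) no longer passes.

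Without MSC-EVs replicate 3 the counts of genes that rose were 2 for i-EVs, 6 for IL4-EVs and 6 for MSC-EVs, against 0.601%, 2.7% and 4.93% of all clusters called higher in the same fit. The 6 were the same with both: Plxna1, Plxna2, Plxnb1, Plxnb3, Sema5a and Sema6a. Those with i-EVs were Sema5a and Sema6a. With i-EVs replicate 2 left out as well, 6 rose with IL4-EVs (2.95% of all clusters), and 0 of 9 passed in limma with i-EVs (0.0275%) and between MSC-EVs and i-EVs (0.0137%).

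As a description over arrays that share 4 conditions and a common normalization, Plxnb3 and its ligand Sema5a followed each other closely (Pearson r 0.95 over 12 arrays, 0.94 without MSC-EVs replicate 3), and so did Plxna1 and Plxnb1 (0.99 and 0.98). Plxnb3 and Plxna2 had r -0.56 over the 12 arrays and 0.93 over the other 11. Of the 36 pairs of genes 10 had r below 0, unrounded, over 12 arrays, and without that array all 36 pairs lay between 0.59 and 0.98. The values of the genes most like the 9 were sought among 6893 named genes with a mean of at least 6, by the correlation with the mean of the 9 genes' scaled values over the 12 arrays. They were Srrm2 (r 0.99), Fasn (0.988), Prrc2b (0.988), Srgap3 (0.987) and Myo9a (0.987), each with r between 0.985 and 0.989 without MSC-EVs replicate 3. Srrm2 encodes a splicing factor, Fasn fatty acid synthase, and Srgap3 and Myo9a proteins that switch off small GTPases.

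The median log2 fold change with IL4-EVs and MSC-EVs was 0.12 and 0.18 for the other plexins and 0.09 and 0.05 for the other membrane-bound semaphorins. Of the other plexins, 0 of 3 passed in limma with any EVs (1 at unadjusted p under 0.05 with IL4-EVs, 0 with the others). Among them Plxnc1, the receptor of Sema7a, was at 7.84 ± 0.0921 (SD, n = 3) in CTRL and 8.32 ± 0.639 with MSC-EVs. Of the 10 other measured membrane-bound semaphorins, 2 rose and 1 fell with IL4-EVs and 1 rose and 1 fell with MSC-EVs, against 1.61% higher and 4.13% lower, and 5.86% higher and 6.75% lower, of all clusters. Of the 10, 4 had a mean of at least 6, and of such clusters 6.47% and 15.3% were called higher with IL4-EVs and MSC-EVs. Without MSC-EVs replicate 3, 3 of the 10 rose with IL4-EVs and 4 with MSC-EVs (2.7% and 4.93% of all clusters in that fit), 2 rose with i-EVs (0.601%), and of the 3 other plexins 1 rose with IL4-EVs (Plxna3). Sema5b, the relative of Sema5a, rose by 0.39 ± 0.102 with IL4-EVs (limma adjusted p = 0.044) and 0.41 ± 0.102 with MSC-EVs (limma adjusted p = 0.0194). Sema6d, named after its values were seen, rose by 0.62 ± 0.157 with IL4-EVs (limma adjusted p = 0.0412). Sema7a, which is anchored to the membrane by a lipid, had a log2 fold change of -0.27 ± 0.0695 with IL4-EVs (limma adjusted p = 0.0451) and -0.30 ± 0.0695 with MSC-EVs (limma adjusted p = 0.0142), from 6.17 ± 0.0661 (SD, n = 3) in CTRL.

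Of the secreted class 3 semaphorins 0 of 7 passed in limma with any EVs, also at unadjusted p under 0.05. Of the 7, 5 had means under 4, close to the array medians, and only Sema3d had a mean of at least 6, so for most of them a change may not be detectable at this signal. The gene of this list with the highest mean, Sema3d, had means of 10.26 ± 0.109 for CTRL, 10.48 ± 0.19 for i-EVs, 10.67 ± 0.0441 for IL4-EVs and 10.44 ± 0.58 for MSC-EVs (SD, n = 3). Of the membrane partners of plexins and neuropilins, such as Met, Erbb2 and L1cam, 0 of 10 passed, also unadjusted, and here too 6 had means under 4 (Met 3.11, Erbb2 3.47) and 3 had means of at least 6. The adhesion molecule Chl1, a partner of neuropilins, was at 9.40 ± 0.0889 in CTRL and 9.90 ± 1.1 with MSC-EVs (SD, n = 3), with a wide spread in the latter. The median log2 fold changes of both lists with MSC-EVs were -0.02, near that of all clusters. Sema3d rose with IL4-EVs and MSC-EVs once MSC-EVs replicate 3 was left out (0.40 ± 0.0938 and 0.51 ± 0.105, limma adjusted p = 0.0234 and 0.0104), and 0 of 10 partners changed.

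Genes of the signalling chain below plexins went both ways. Of 28 measured, 7 rose and 5 fell with IL4-EVs and 8 rose and 5 fell with MSC-EVs, against 1.61% higher and 4.13% lower, and 5.86% higher and 6.75% lower, of all clusters. Of the 28, 20 had a mean of at least 6, and of such clusters 6.47% and 15.3% were called higher with IL4-EVs and MSC-EVs. The share of such clusters called lower in the fit of all clusters was not counted. A separate fit of these 13061 clusters alone, with its own adjustment, called 3653 and 4282 of them lower in the same order. These counts are therefore no direct background for the genes that fell. With i-EVs 0 of 28 passed in limma (9 at unadjusted p under 0.05). When MSC-EVs replicate 3 was left out, 2 of 28 fell with i-EVs, Gipc1 and Rap1b (limma adjusted p = 0.0326 and 0.0411), against 1.95% of all clusters. With i-EVs replicate 2 left out as well, 0 of 28 passed with i-EVs. Without MSC-EVs replicate 3 alone, 9 rose and 6 fell with IL4-EVs (2.7% and 5.63% of all clusters), and 8 rose and 4 fell with MSC-EVs (4.93% and 6.37%). Gipc1, an adaptor that binds the tail of neuropilins and moves receptors inside the cell, fell from 9.21 ± 0.152 (SD, n = 3) in CTRL to 8.56 ± 0.0771 with IL4-EVs and 8.33 ± 0.0583 with MSC-EVs (log2 fold change -0.65 and -0.88, SE 0.0814, limma adjusted p = 0.00184 and 0.000249). Rhoa, the GTPase that class B plexins switch on through their exchange factors, went from 15.30 ± 0.0356 to 14.97 ± 0.0764 and 14.82 ± 0.0511 (-0.33 and -0.48, SE 0.0638, limma adjusted p = 0.0108 and 0.000901). Rock1, a kinase that Rhoa turns on, rose from 11.0 ± 0.0754 to 11.43 ± 0.0644 and 11.65 ± 0.115 (0.43 and 0.65, SE 0.0741, limma adjusted p = 0.00615 and 0.000491).

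The genes of the chain named next were picked after their values were seen. The exchange factors that class B plexins bind rose with both kinds of EVs, Arhgef12 by 0.50 and 0.70 (SE 0.105, limma adjusted p = 0.0168 and 0.00157) and Arhgef11 by 0.28 and 0.33 (SE 0.0656, limma adjusted p = 0.0304 and 0.00654), with IL4-EVs and MSC-EVs in that order. So did Farp2, an exchange factor that binds class A plexins (0.53 and 0.45, SE 0.0931, limma adjusted p = 0.00713 and 0.00843), and the kinase Gsk3b (0.57 and 0.52, SE 0.0871, limma adjusted p = 0.0037 and 0.00276). Rap1a and Rap1b, the GTPases that plexins switch off, both fell, with log2 fold changes of -0.60 and -0.52 for Rap1b (SE 0.103, limma adjusted p = 0.00599 and 0.00673) and -0.37 and -0.32 for Rap1a (SE 0.0906, limma adjusted p = 0.0373 and 0.0411). Rap1a with MSC-EVs no longer passed without MSC-EVs replicate 3 (-0.34 ± 0.103, limma adjusted p = 0.0648). Cdk5, a kinase of the Sema3a response, fell with MSC-EVs (-0.67 ± 0.166, limma adjusted p = 0.0198; -0.43 ± 0.0984 and 0.0167 without that array), and Rnd1, a GTPase that binds plexins, with IL4-EVs (-0.24 ± 0.0581, limma adjusted p = 0.0347) at a low mean of 4.35.

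Of the other guidance receptors, 2 of 19 rose with IL4-EVs and MSC-EVs (1.61% and 5.86% of all clusters, and 6.47% and 15.3% of those with a mean of at least 6, which 6 of the 19 had) and 0 fell. When MSC-EVs replicate 3 was left out, 4 of 19 rose with each (2.7% and 4.93% of all clusters), with Neo1 and Epha4 added. The 2 called over all arrays are netrin receptors. Dcc went from 10.14 ± 0.178 (SD, n = 3) in CTRL to 10.95 ± 0.0854 with IL4-EVs and 10.93 ± 0.169 with MSC-EVs (0.81 and 0.79, SE 0.124, limma adjusted p = 0.00365 and 0.00196), and Unc5c from 8.60 ± 0.0531 to 9.02 ± 0.0597 and 9.07 ± 0.0637 (0.42 and 0.47, SE 0.0661, limma adjusted p = 0.00407 and 0.00116). The median log2 fold change of the 19 was 0.03 with both, against 0.43 and 0.39 for the 9 plexins, neuropilin and semaphorins; this difference between lists was not tested. With i-EVs 0 of 19 passed in limma (2 at unadjusted p under 0.05). When MSC-EVs replicate 3 was left out, 1 of 19 rose with i-EVs, Epha4 (0.57 ± 0.0725, limma adjusted p = 0.0114), against 0.601% of all clusters.

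**Figure D4:**
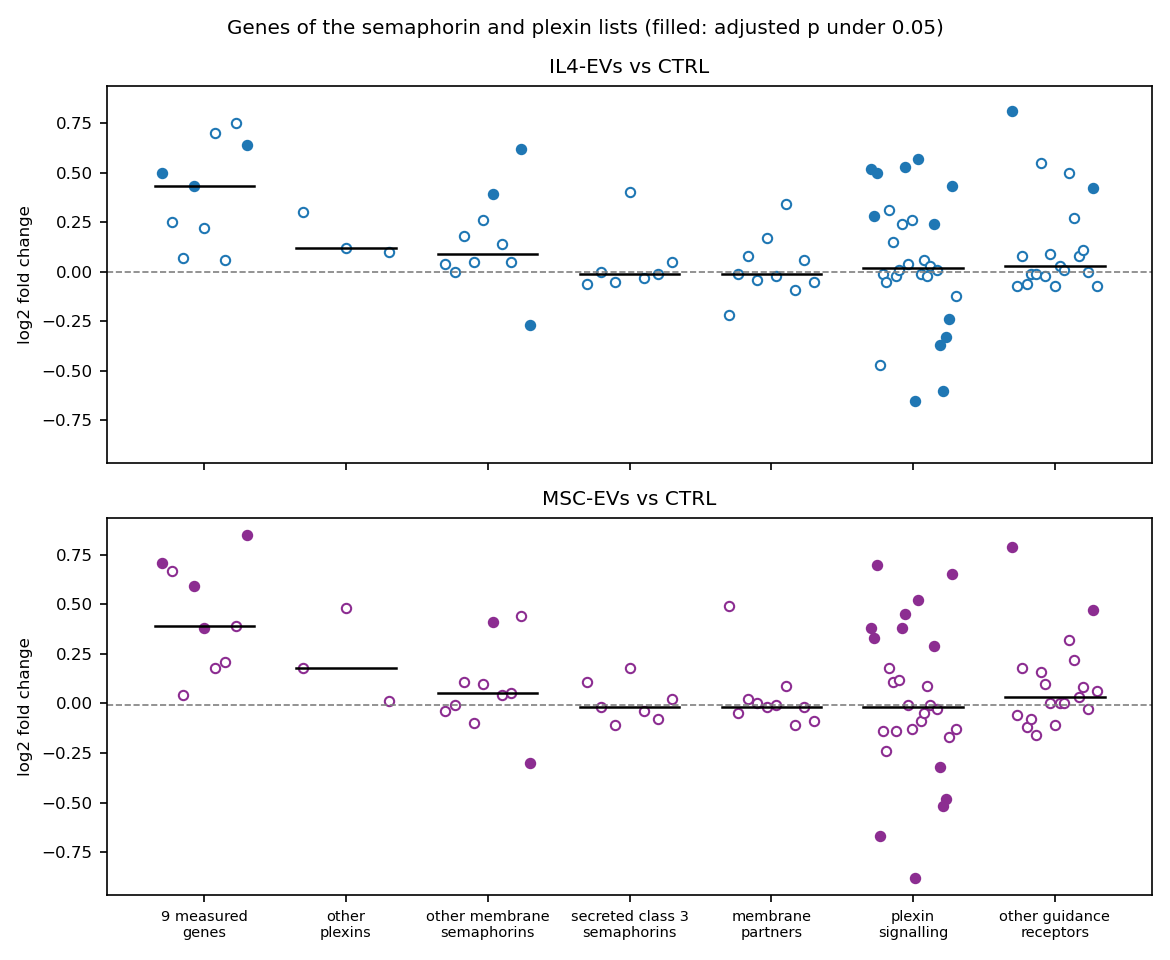
log2 fold change against CTRL (y axis) of each gene in the 9 measured genes and in 6 wider lists (x axis), with IL4-EVs above and MSC-EVs below; filled dots have an adjusted p under 0.05, short black lines are list medians and the dashed line is the median of all clusters. The medians of the 9 genes (0.43 and 0.39) lie above the line, and those of plexin signalling (0.02 and -0.02) lie close to it with filled dots on both sides.

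Marker sums of several cell types and states also differed between the conditions. The summed linear intensity of the 7 committed precursor genes ranged from 71600 to 75600 on the CTRL arrays, from 72600 to 82600 for i-EVs, from 86100 to 92400 for IL4-EVs and from 40800 to 90500 for MSC-EVs. That of the 7 OPC genes was 1150000 to 1210000, 1250000 to 1270000, 1250000 to 1300000 and 1110000 to 1280000 in the same order, with Ptprz1 higher by 0.31 ± 0.0633 with IL4-EVs and with MSC-EVs (limma adjusted p = 0.0149 and 0.00778) and Cspg4 by 0.79 ± 0.175 with MSC-EVs (limma adjusted p = 0.0112; 0.53 ± 0.0875 and 0.00371 without MSC-EVs replicate 3). The other 5 did not pass, with Sox10 at -0.22, Gpr17 at -0.16 and Lhfpl3 at -0.13 with MSC-EVs. No marker was at 0. The committed precursor sum is mostly Fyn (mean 16.06 log2 units, the next being Bcas1 at 11.47). Over all arrays limma called 0 of these 7 genes with any EVs, and 1 had an unadjusted p under 0.05, with IL4-EVs. All 7 lay above every CTRL array on the IL4-EVs arrays (23.3% of clusters with a mean of at least 6). When MSC-EVs replicate 3 was left out, 1 of 7 rose for i-EVs, 3 for IL4-EVs and 2 for MSC-EVs (0.601%, 2.7% and 4.93% of all clusters). The sum of the 7 astrocyte genes was 3030 to 3160, 2520 to 2720, 2430 to 2570 and 1830 to 2500, and that of the 8 neuron genes 11500 to 12000, 11400 to 13000, 13000 to 13600 and 12300 to 14100. The sums follow the brightest genes, and members went different ways: of the neuron genes Dcx rose with IL4-EVs (0.50 ± 0.129, limma adjusted p = 0.0442), while Snap25 fell with IL4-EVs and MSC-EVs (-0.56 and -0.44, SE 0.0999, limma adjusted p = 0.00748 and 0.0135), and the median log2 fold change of the 8 was 0.01 and -0.06. The sum of the 7 cell cycle genes was 42500 to 45900, 38000 to 38200, 41300 to 46600 and 41800 to 151000, the highest in MSC-EVs replicate 3. This sum is mostly Mki67, and 6 of the 7 genes lay below every CTRL array on all i-EVs arrays, and 6 on all IL4-EVs arrays (median log2 fold change -0.53 with both). The share of all clusters lying below CTRL in this way was not counted, so how unusual this is cannot be told. With all arrays limma called 0 of 7 with any EVs (at unadjusted p under 0.05 there were 1, 4 and 1 for the 3 kinds, i-EVs first and MSC-EVs last). With that array left out, 5, 6 and 6 of 7 fell in the same order, against 1.95%, 5.63% and 6.37% of all clusters called lower, while Mki67 rose with IL4-EVs and MSC-EVs (0.40 ± 0.0771 and 0.47 ± 0.0862, limma adjusted p = 0.01 and 0.00612). The part of these shifts in the changes of the plexins and semaphorins was not tested.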

How the data were processed

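RNA of 12 OPC samples (3 per condition, grouped by the sample labels) was hybridized to Clariom D arrays. The deposited values are intensities that the authors had computed with RMA, which corrects the background of perfect-match probes, applies quantile normalization and summarizes probes to clusters in log2 units; the files give them on a linear scale (3.34 to 999968). The study's methods name TAC 4.0, and the submitters' processing notes Affymetrix Expression Console. No source used here gives the genome build of the annotation. A second deposited table held the same values (largest difference 4.44e-16 log2 units). Both tables hold 65535 clusters, and 2145 of these carry several symbols.

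The log2 was taken with no pseudocount, and a single cluster per gene was kept, that with the highest mean. In limma 3.58.1 (R 4.3.3, data.table version 1.17.8; lmFit and eBayes, 8 residual and 3.46 prior degrees of freedom) the model had 1 mean per group, and p-values were adjusted by Benjamini-Hochberg within each of 6 comparisons. The procedure was tested on simulated data. Quantile normalization assumes like distributions in all arrays, and the number of arrays limits the precision. Alternatives were quantile normalization again, cyclic loess, a minimum mean of 6, the 2 groups alone, a replicate block and an intensity trend. Each array was also left out, and, chosen after seeing the data, both arrays that stand apart. The other deposited file was counted as well, though it holds the same values and can only repeat the result. Named are all members, up to 3 genes of each wider list with the smallest p with MSC-EVs, or its highest mean where none passed, markers, and the 5 genes most like the members. The members and lists were chosen with earlier results of these data known. Fyn, Kdr, Trem2 and Tyrobp stand in a wider list and in a marker list. Plots were made in Python 3.11.15 with matplotlib 3.10.9.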

Additional observations from a re-analysis of the deposited data

Results flagged for a closer look

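Sema6a, the transmembrane semaphorin, was the only one of the 9 measured genes for which a direct test between kinds of EVs passed. Its MSC-EVs mean exceeded its i-EVs mean by 0.45 log2 units (SE 0.0805, limma adjusted p = 0.0286). In it 3 of 3 MSC-EVs arrays lay above all i-EVs arrays, and the share of all clusters that do so was not counted. The adjusted p ran from 0.0147 to 0.174 over 20 alternatives and passed in 14 of them. With the 2 groups alone it was 0.174. No other of the 9 genes passed between MSC-EVs and i-EVs, and none passed between the other pairs of EV groups.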

How the results depend on the processing

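Plxna1, Plxnb1 and Sema6a with MSC-EVs and Sema6a with IL4-EVs kept their rise in 20 of 20 alternatives, and each other call was lost in at least 1. The count of the 9 genes called with i-EVs went from 0 to 1 with quantile normalization again, cyclic loess, the minimum mean of 6 (7 genes tested) or the replicate block (0.279%, 0.497%, 3.82% and 0.2% of clusters tested were called higher). With IL4-EVs it went from 3 to 6 with the 2 groups alone (3.09%), and to 6 without both arrays that stand apart (2.95%), an alternative chosen after seeing the data. Between MSC-EVs and i-EVs it went from 1 to 2 with the minimum mean or the replicate block (7.15% and 1.65%) and to 0 with the 2 groups alone or without both arrays (0.0% and 0.0137%). Leaving out 1 array at a time gave counts of 0 to 2 (i-EVs), 1 to 6 (IL4-EVs), 3 to 6 (MSC-EVs) and 0 to 2 (MSC-EVs against i-EVs). The replicate block changed no count with IL4-EVs (3) or MSC-EVs (4). Whether the replicate numbers pair the samples is not given. Between groups, deviations of same-numbered arrays from their group means correlated at -0.299 to 0.33 (median 0.089), with 8 of 18 over 0.1. Other pairs correlated at -0.421 to 0.282 (median -0.06), with 9 of 36 over 0.1, and 5 of 12 arrays correlated best with their own number. The ranges overlap, and these values do not decide whether the samples were paired.

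Of the 77 genes of the wider lists, limma called 0 for i-EVs, 17 for IL4-EVs and 17 for MSC-EVs, in either direction. Of all 65535 clusters it called 312, 3762 and 8267. With i-EVs the count of these genes became 1 with quantile normalization again, 3 with cyclic loess, 7 of 36 with the minimum mean, 1 with the replicate block and 1 without both arrays. Over all clusters tested the counts were 350, 520, 2313 of 13061, 876 and 82 in the same order. With IL4-EVs it became 26 without both arrays (6013 of all clusters), and with MSC-EVs 11 with the 2 groups alone (5358). Leaving out 1 array gave 0 to 5 for i-EVs, 7 to 25 for IL4-EVs and 12 to 22 for MSC-EVs. Over all clusters it gave 0 to 1674, 1606 to 5463 and 5118 to 8504.

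Signs turned where changes were small or rested on MSC-EVs replicate 3. Plxna4 with MSC-EVs was at -0.04 with quantile normalization again, and its difference of MSC-EVs from IL4-EVs ran from -0.07 to 0.04 with 1 array left out (0.04 without both arrays). Plxnb3 with MSC-EVs ran from -0.11 to 0.73. MSC-EVs minus i-EVs ran from -0.48 to 0.37 in Plxnb3 and from -0.42 to 0.29 in Sema5a (0.32 and 0.26 without both arrays), and MSC-EVs minus IL4-EVs from -0.81 to 0.03 and from -0.62 to 0.09 (0.03 and 0.09). In each the high end was without replicate 3. Nrp2 ran from -0.01 to 0.03 between IL4-EVs and i-EVs. The cause was not tested. Another cluster of the same symbol could not be tried, since each gene had 1. Plxna4 and Nrp2 were dim, and differences there can be understated.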
